A study of Homo sapiens with 5 samples.

Results

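The feedback regulators of TGF-beta signalling are genes whose products damp the pathway that often induces them, and 10 of them were examined here among 20037 protein-coding genes of the RefSeq annotation. They are the inhibitory SMADs SMAD6 and SMAD7, the corepressors SKI, SKIL and TGIF1, the ubiquitin ligases SMURF1 and SMURF2, the membrane proteins PMEPA1 and BAMBI, and the early-response transcription factor KLF10. A peak was assigned to a gene when it lay inside the gene or within 50 kb of either end. By this rule 44 peaks from 5 chromatin immunoprecipitation sequencing (ChIP-seq) libraries were assigned to the 10 genes, and each gene had at least 1. In 2 of the 5 libraries alone, 63.2% of all protein-coding genes had such a peak, and the share over all 5 was not counted. For 12 of the 44 peaks another protein-coding gene was nearer.

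The study mapped IRF3, the transcription factor activated by double-stranded RNA, and Smad3, a signal-transducing SMAD of the TGF-beta pathway, in BT549, a basal-like human breast cancer cell line. All cells carried a lentiviral vector for stable expression, either of constitutively active Smad3 (caSmad3 cells) or of HA as the control (HA cells), and the labels do not say whether either line is a clone. IRF3 was precipitated from caSmad3 cells and from HA cells, both transfected with polyI:C, a synthetic double-stranded RNA, and neither given TGF-beta. Smad3 was precipitated from caSmad3 cells transfected with polyI:C without TGF-beta, from HA cells transfected with polyI:C and given 1 ng/ml TGF-beta for 1.5 h, and from mock-transfected HA cells given the same TGF-beta treatment. Each of these 5 groups holds 1 library, so no difference between groups has a replicate check and none was tested. Since the caSmad3 cells precipitated for Smad3 had no TGF-beta, the effect of caSmad3 and that of leaving out TGF-beta cannot be told apart in the Smad3 libraries.

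TGF-beta receptors phosphorylate SMAD2 and SMAD3, which join SMAD4 and enter the nucleus to regulate target genes. Among those targets are inhibitors of the pathway itself, which act on the ligand-bound receptor, on the signal-carrying SMADs or on their transcriptional partners. SMAD complexes recognise short DNA elements and usually bind beside other transcription factors, while IRF3 is best known for the interferon genes of the antiviral response.

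The peak lists held 8067 peaks for IRF3 in caSmad3 cells, 4125 for IRF3 in HA cells, 6041 for Smad3 in caSmad3 cells, 786 for Smad3 in HA cells with polyI:C and TGF-beta, and 353 for Smad3 in mock-transfected HA cells with TGF-beta. The files give positions on hg38, the build of all coordinates below, and no score, read count or depth, so a peak is either listed or not, and read depth is unknown. Median peak widths ran from 154.5 to 215 bases over the 5 lists, and the narrowest peak had 99 bases. A longer list places peaks near more genes of every kind, so the main counts below are given with the share of all protein-coding genes reached by the same list.

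The promoter sequences of 5 of the regulators are shown because an IRF3 peak of caSmad3 cells covered the start in each window, together with a Smad3 peak at SMAD6 and PMEPA1. They are RefSeq sequences of GRCh38.p14, written 5′ to 3′ on the strand of the gene, from 250 bases before to 50 bases after a RefSeq start. The windows are chr15:66701986-66702285 (plus strand) for SMAD6, chr20:57709966-57710265 (minus strand) for PMEPA1 at an internal start, chr10:28677271-28677570 (plus strand) for BAMBI, chr3:170357465-170357764 (plus strand) for SKIL and chr18:3451343-3451642 (plus strand) for TGIF1 at an internal start. Capitals mark matches on either strand to CAGAC, the Smad element, to the palindromic Smad element GTCTAGAC, to the GC-rich Smad element GGCGC, to GAAANNGAA, a core of the interferon-stimulated response element, and to TGANTCA, the AP-1 element.
SMAD6: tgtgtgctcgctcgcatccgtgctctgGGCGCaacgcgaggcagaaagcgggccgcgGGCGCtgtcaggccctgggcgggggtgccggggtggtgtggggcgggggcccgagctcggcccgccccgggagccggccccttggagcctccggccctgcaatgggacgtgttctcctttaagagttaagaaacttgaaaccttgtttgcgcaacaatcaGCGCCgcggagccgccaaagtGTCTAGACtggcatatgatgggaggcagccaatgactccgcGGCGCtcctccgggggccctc
PMEPA1: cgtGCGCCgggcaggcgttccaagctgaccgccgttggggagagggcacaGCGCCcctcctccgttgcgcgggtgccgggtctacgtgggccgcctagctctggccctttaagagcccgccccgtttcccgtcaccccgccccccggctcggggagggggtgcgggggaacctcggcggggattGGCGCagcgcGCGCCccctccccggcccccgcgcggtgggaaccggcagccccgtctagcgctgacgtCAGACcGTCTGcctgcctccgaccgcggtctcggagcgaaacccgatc
BAMBI: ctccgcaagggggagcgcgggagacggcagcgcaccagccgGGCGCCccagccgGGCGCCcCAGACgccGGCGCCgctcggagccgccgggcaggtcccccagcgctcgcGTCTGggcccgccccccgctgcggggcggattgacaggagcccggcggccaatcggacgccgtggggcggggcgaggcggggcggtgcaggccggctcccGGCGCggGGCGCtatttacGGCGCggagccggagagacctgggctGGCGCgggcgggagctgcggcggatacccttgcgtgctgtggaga
SKIL: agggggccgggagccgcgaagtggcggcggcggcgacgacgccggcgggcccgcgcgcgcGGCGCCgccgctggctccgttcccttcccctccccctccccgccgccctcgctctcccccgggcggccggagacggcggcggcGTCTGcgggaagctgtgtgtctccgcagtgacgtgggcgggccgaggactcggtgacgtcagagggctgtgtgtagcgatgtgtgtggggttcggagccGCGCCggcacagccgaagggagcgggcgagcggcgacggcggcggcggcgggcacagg
TGIF1: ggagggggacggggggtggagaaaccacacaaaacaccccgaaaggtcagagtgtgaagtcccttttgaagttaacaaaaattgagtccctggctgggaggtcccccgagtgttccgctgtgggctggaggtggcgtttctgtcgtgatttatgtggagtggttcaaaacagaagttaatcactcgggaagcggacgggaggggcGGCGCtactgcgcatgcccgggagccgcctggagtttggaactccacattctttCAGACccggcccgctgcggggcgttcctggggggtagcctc

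The palindrome GTCTAGAC occurred in 0.202% of all 35116 RefSeq promoters of this length, and the SMAD6 window held 1 copy whose first base lies 12 bases before the start (chr15:66702224-66702231). Both caSmad3 peaks at SMAD6, that of Smad3 and that of IRF3, covered this copy. The shorter elements were common, with CAGAC in 45.3% and GGCGC in 48.6% of all promoters. PMEPA1 held 2 matches to CAGAC, 2 and 8 bases after the start, both under the Smad3 and the IRF3 peak of caSmad3 cells. BAMBI held 2 matches to CAGAC and 10 to GGCGC, where GGCGCC counts as 2 matches because the element and its complement overlap. SKIL held 1 match to CAGAC and 3 to GGCGC, and TGIF1 held 1 of each. No Smad3 peak covered a match in the BAMBI, SKIL or TGIF1 window, and neither CAGAC match at BAMBI lay under any listed peak. None of the 5 windows held GAAANNGAA, found in 8.11% of all promoters, or TGANTCA, found in 7.71%. A match describes the letters of these windows and is not evidence of binding at that base.

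Smad3 peaks lay within 50 kb of 6 of the 10 regulators in caSmad3 cells (60%, 95% Clopper-Pearson interval 26.2 to 87.8%), against 33.8% of all protein-coding genes. In HA cells with polyI:C and TGF-beta they lay at 2 of 10 (20%, 2.52 to 55.6%), against 5.24% of all genes. In mock-transfected HA cells with TGF-beta they lay at 1 of 10 (10%, 0.253 to 44.5%), against 2.04% of all genes. The regulators had a higher share than all genes in each Smad3 list, but each of the 3 intervals held the share of all genes. These intervals cover counting error over 10 genes only, and the genes were chosen with earlier results of these data known. The median length of the 10 genes was 55.55 kb, against 24.1 kb for all protein-coding genes. Their median window was 155.5 kb, against 124.0 kb, and the part of window size in these shares was not tested.

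IRF3 peaks lay within 50 kb of 8 of the 10 regulators in caSmad3 cells (80%, 44.4 to 97.5%), against 57.1% of all genes. In HA cells they lay at 4 of 10 (40%, 12.2 to 73.8%), against 37.6% of all genes, which is near the background. Restricted to peaks over a gene end or within 1 kb of one, IRF3 in caSmad3 cells reached 7 of 10 regulators (70%, 34.8 to 93.3%), against 31.1% of all genes. IRF3 in HA cells reached 2 of 10 (20%, 2.52 to 55.6%), against 17.0%. Smad3 in caSmad3 cells had a gene-end peak at 4 of 10 (40%, 12.2 to 73.8%), against 10.6% of all genes. Smad3 in both HA libraries had one at 0 of 10, which allows a share of up to 30.0%, against 0.883% of all genes with polyI:C and 0.245% with mock transfection. At gene ends the intervals for IRF3 and for Smad3 in caSmad3 cells began just above the share of all genes, and that for IRF3 in HA cells held it. The 10 genes were chosen with earlier results of these data known, so the position of an interval against that share is not a test. Among the 4 Smad3 genes, only SMAD6 had its peak over an end, and SKI, SMURF2 and PMEPA1 had theirs 981, 867 and 819 bases inside, near the 1 kb limit. With 1 regulator fewer the intervals would begin at 26.2% for IRF3 and 6.67% for Smad3, below the shares of all genes, a check chosen after these values were seen. With the wider 50% of each list alone, the gene-end counts in caSmad3 cells were 4 of 10 for IRF3 (12.2 to 73.8%), against 19.3% of all genes, and 2 of 10 for Smad3 (2.52 to 55.6%), against 5.34%. In that setting the interval held the share of all genes for IRF3 and for Smad3. A count within 1 kb of any RefSeq start takes in internal starts and leaves out SKI and KLF10. By this rule IRF3 reached 6 of 8 regulators in caSmad3 cells (75.0%, 34.9 to 96.8%), against 33.8% of genes with a start. In HA cells it reached 1 of 8 (12.5%, 0.316 to 52.7%), against 18.3%. Smad3 reached 4 of 8 in caSmad3 cells (50.0%, 15.7 to 84.3%), against 11.3%. It reached 0 in HA cells with polyI:C and TGF-beta, against 0.997%, and 0 in mock-transfected HA cells, against 0.234%. Here a count of 0 allows up to 37.5%.

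**Figure D1:**
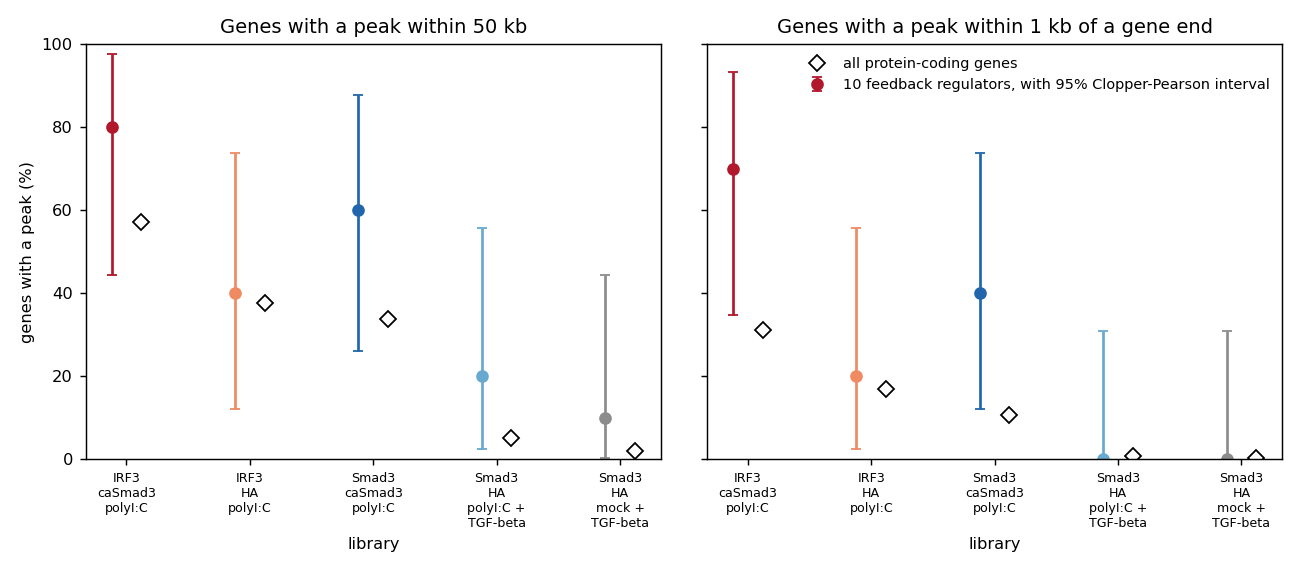
The vertical axis is the percent of genes with a peak within 50 kb (left) or within 1 kb of a gene end (right), by library. Filled circles are the 10 feedback regulators with 95% Clopper-Pearson intervals and open diamonds are all 20037 protein-coding genes. At gene ends in caSmad3 cells the interval for IRF3 begins at 34.8%, above the diamond at 31.1%, and that for Smad3 at 12.2%, above the diamond at 10.6%. Both would begin below it with 1 regulator fewer. The genes were chosen with earlier results of these data known, so the intervals are not a test.

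Of the 44 peaks, 34 came from the 2 caSmad3 lists and 10 from the 3 HA lists, a caSmad3 share of 77.3%, near the 72.8% over all 19372 peaks of the 5 lists. Per megabase of the regulators' windows, Smad3 had 11.3 peaks in caSmad3 cells, 1.88 in HA cells with polyI:C and TGF-beta and 0.628 in mock-transfected HA cells with TGF-beta. The windows of all protein-coding genes held 2.65, 0.31 and 0.13 peaks per megabase in the same 3 lists. For IRF3 the regulators' windows held 10.0 peaks per megabase in caSmad3 cells and 3.77 in HA cells, and those of all genes held 4.1 and 2.08. The Smad3 densities rested largely on PMEPA1 and SMURF2: without these genes they were 5.79, 0.0 and 0.0 peaks per megabase in the caSmad3, polyI:C and mock lists. As the heat map of counts shows, PMEPA1 and SMURF2 hold all 4 Smad3 peaks found in HA cells.

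**Figure D2:**
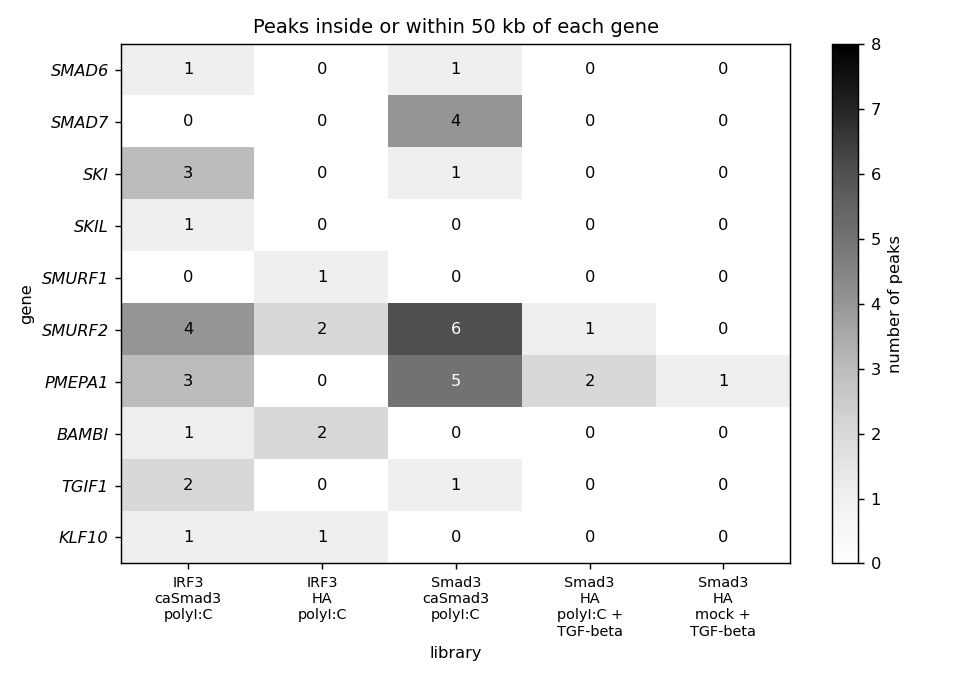
Each cell gives the number of peaks inside or within 50 kb of a regulator (rows) in 1 library (columns), with darker shades for higher counts. SMURF2 with 6 and PMEPA1 with 5 have the highest counts, both for Smad3 in caSmad3 cells, and 9 of the 10 genes have a peak in at least 1 caSmad3 list, against 63.2% of all protein-coding genes.

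The 44 peaks fell into 29 separate sites, of which 17 were listed in 1 library, 10 in 2 libraries and 2 in 3. Both factors were listed at 6 sites. By position, 7 peaks lay over a gene end, 4 inside within 1 kb of an end, 2 outside within 1 kb, 23 further outside and 8 deep inside, more than 1 kb from both ends. Of the 8 deep peaks, 5 lay within 1 kb of another RefSeq start of the same gene and 3 lay further from any of its starts. A deep peak was found for IRF3 at PMEPA1 and TGIF1 in caSmad3 cells (2 of 10, 2.52 to 55.6%), against 4.66% of all genes. In HA cells IRF3 had one at SMURF1 (1 of 10, 0.253 to 44.5%), against 2.5%. For Smad3 one was found at PMEPA1 and TGIF1 in caSmad3 cells (2 of 10, 2.52 to 55.6%), against 5.89%. In HA cells with polyI:C and TGF-beta, Smad3 had one at PMEPA1 (1 of 10, 0.253 to 44.5%), against 0.983%. In mock-transfected HA cells it had one at none, against 0.404%. Each of these intervals held the share of all genes. The regulators were also longer, with a median of 55.55 kb against 24.1 kb, and the part of gene length was not tested. With depth inside set at over 10 kb from both ends, PMEPA1 alone still had such peaks, and of Smad3 only. Peaks were not placed in exons, introns or UTRs. For 12 peaks another protein-coding gene was nearer, 8 of them at SMURF2. The outermost peaks within the 50 kb limit lay 47.1 and 47.3 kb from SMAD7 and 47.5 kb from BAMBI, and the nearest one beyond it lay 61.0 kb from PMEPA1.

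**Figure D3:**
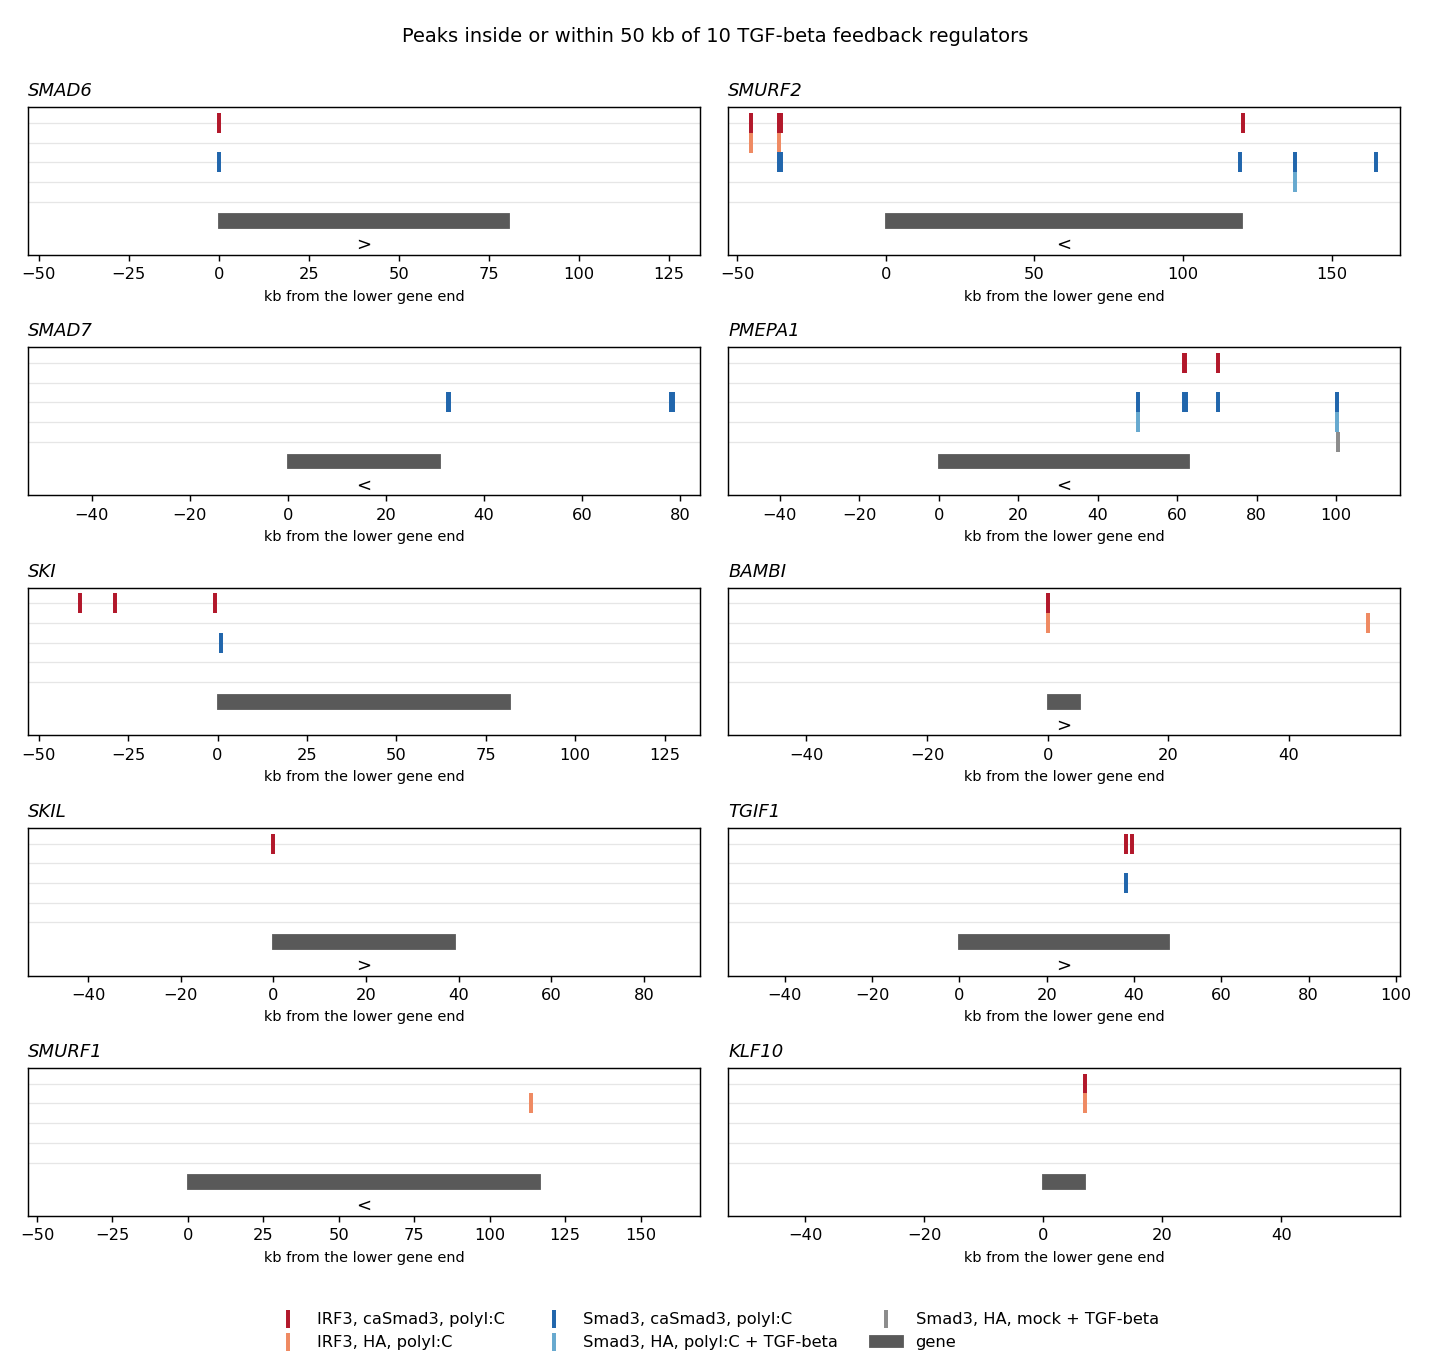
Each panel is a regulator, with its body as a grey bar, the horizontal axis in kb from its lower end, and each mark a peak in the row and colour of its library; marks are drawn wider than the peaks so that they can be seen. Peaks deep inside occur at PMEPA1, TGIF1 and SMURF1, and the outermost ones lie between 44.8 and 47.5 kb from SMAD7, SMURF2 and BAMBI.

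The inhibitory SMADs differed in which factor was found and where. SMAD6 (chr15:66702236-66782849, plus strand), which mainly blocks BMP receptors and their SMADs, had 1 peak of each factor in caSmad3 cells, and both lay over its start. The Smad3 peak spanned 102 bases (chr15:66702153-66702254) and the IRF3 peak 267 bases (chr15:66702163-66702429). They shared 92 bases, or 90.2% of the Smad3 peak and 34.5% of the IRF3 peak. No peak of either factor was listed at SMAD6 in HA cells. SMAD7 (chr18:48919853-48950965, minus strand), which occupies the activated TGF-beta receptor and brings ubiquitin ligases to it, had 4 Smad3 peaks in caSmad3 cells and none in the other 4 libraries. In that list 3.5% of all protein-coding genes had 4 or more peaks. A pair of these peaks lay 1421 and 1748 bases upstream of the gene, with widths of 149 and 176 bases. The other pair lay 47.1 and 47.3 kb upstream, where DYM was the nearer gene. SMAD7 was the only regulator with a Smad3 peak and no IRF3 peak in caSmad3 cells, a class that held 6.11% of all genes. On its chromosome, chromosome 18, 18.9% of coding genes had a Smad3 peak within 50 kb in caSmad3 cells.

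The corepressors SKI, SKIL and TGIF1 had peaks in caSmad3 cells alone. Of all genes, 63.2% had a peak within 50 kb in at least 1 caSmad3 list. In the IRF3 and Smad3 lists of HA cells with polyI:C, 61.0% of all genes had no such peak. The share of all genes with a peak in caSmad3 cells and none in any HA list was not counted. SKI (chr1:2228319-2310213), which holds SMAD complexes in a repressed state, had 1 Smad3 peak 981 bases inside its lower end and an IRF3 peak 723 bases below that end, so that the factors lay on either side of it without overlap. A further pair of IRF3 peaks lay 28.6 and 38.4 kb below SKI, inside FAAP20. SKIL (chr3:170357715-170396849, plus strand), the close relative of SKI also called SnoN, had 1 IRF3 peak of 217 bases over its start (chr3:170357572-170357788) and no Smad3 peak in any of the 3 Smad3 lists. TGIF1 (chr18:3412009-3459978, plus strand), a homeodomain corepressor of SMAD2 and SMAD3, had all 3 of its peaks deep inside. The Smad3 peak of 109 bases and an IRF3 peak of 129 bases shared 98 bases (chr18:3450215-3450323 and chr18:3450184-3450312). They lay 9.65 and 9.67 kb from the upper end of TGIF1 and 43 and 12 bases after one of its 7 RefSeq starts. A second IRF3 peak of 116 bases covered another of these starts, at chr18:3451593, whose promoter is printed above. Deep inside the gene by the outer ends, the TGIF1 peaks were thus all at internal starts.

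The ubiquitin ligases, which mark SMADs and receptors for degradation, stood at opposite ends of the range. SMURF1 (chr7:99027440-99144108, minus strand) had 1 peak in all, of IRF3 in HA cells, 116 bases wide (chr7:99141060-99141175) and 2933 bases inside from its start. No other regulator had IRF3 in HA cells without an IRF3 peak in caSmad3 cells, a class that held 1.66% of all genes. SMURF2 (chr17:64542282-64662307, minus strand) had 13 peaks at 7 sites, the most of the 10 genes. Of its 6 Smad3 peaks in caSmad3 cells, a number reached by 1.36% of all genes and 1.97% of those on chromosome 17, 3 lay 35.2 to 35.9 kb below the gene at DDX5 and CEP95. All 8 peaks of SMURF2 that were nearer to another gene lay below it, at POLG2, DDX5 and CEP95, and they included both IRF3 peaks of HA cells. At its own start, SMURF2 had a Smad3 peak 867 bases inside and an IRF3 peak 192 bases upstream, both in caSmad3 cells and not overlapping. At 17.4 kb upstream a Smad3 peak of 391 bases in caSmad3 cells (chr17:64679737-64680127) held the whole of a 131-base Smad3 peak of HA cells with polyI:C and TGF-beta (chr17:64679888-64680018). A further Smad3 peak of 432 bases in caSmad3 cells lay 44.8 kb upstream, and no peak of mock-transfected HA cells was listed at SMURF2. On chromosome 17, 53.4% of coding genes had a Smad3 peak within 50 kb in caSmad3 cells.

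PMEPA1 (chr20:57648396-57711472, minus strand), a membrane protein that keeps SMAD2 and SMAD3 from the receptor, was the only regulator with a peak in all 3 Smad3 lists. It had 5 Smad3 peaks in caSmad3 cells, 2 in HA cells with polyI:C and TGF-beta and 1 in mock-transfected HA cells with TGF-beta. At least as many peaks were found at 2.22% of all genes in the caSmad3 list and at 1.06% in the polyI:C list. The gene lies on chromosome 20, where 58.7% of coding genes had a Smad3 peak within 50 kb in caSmad3 cells, 14.5% in HA cells with polyI:C and 5.21% in mock-transfected HA cells, all above the genome-wide shares.

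The site shared by the 3 Smad3 lists lay about 37.0 kb upstream of PMEPA1. The peak spanned 574 bases in caSmad3 cells (chr20:57748435-57749008), 99 bases in HA cells with polyI:C and TGF-beta (chr20:57748684-57748782) and 108 bases in mock-transfected HA cells with TGF-beta (chr20:57748716-57748823). The caSmad3 peak was wider than 96.3% of the peaks in its list and held both HA peaks whole, while the HA peaks shared 67 bases with each other. No IRF3 peak was listed at this site. Deep inside the gene, 12.7 kb from its upper end and 7661 bases from the nearest of its 4 RefSeq starts, a Smad3 peak of 397 bases in caSmad3 cells (chr20:57698347-57698743) held the 99-base Smad3 peak of HA cells with polyI:C and TGF-beta (chr20:57698383-57698481). This site too had no IRF3 peak.

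IRF3 was found at PMEPA1 in caSmad3 cells, with 3 peaks, and not in HA cells. Over the internal start at chr20:57710015 a Smad3 peak of 255 bases and an IRF3 peak of 407 bases shared 240 bases. Next to it, an IRF3 peak of 102 bases and a Smad3 peak of 106 bases lay side by side without overlap, and the Smad3 peak covered the internal start at chr20:57710577. The long non-coding RNA gene NKILA overlaps PMEPA1 here, and a peak at these starts cannot be assigned to one of the genes. The peaks of this second pair lay 985 and 819 bases inside the upper end of PMEPA1 and are those counted as gene-end peaks. About 7.0 kb upstream, a Smad3 peak of 296 bases and an IRF3 peak of 185 bases shared 92 bases. Both peaks covered a start of the non-coding RNA gene LOC105372692. The map of the PMEPA1 region thus shows 6 sites: Smad3 in several lists at the outermost upstream site and the deep site, and both factors in caSmad3 cells between them.

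**Figure D4:**
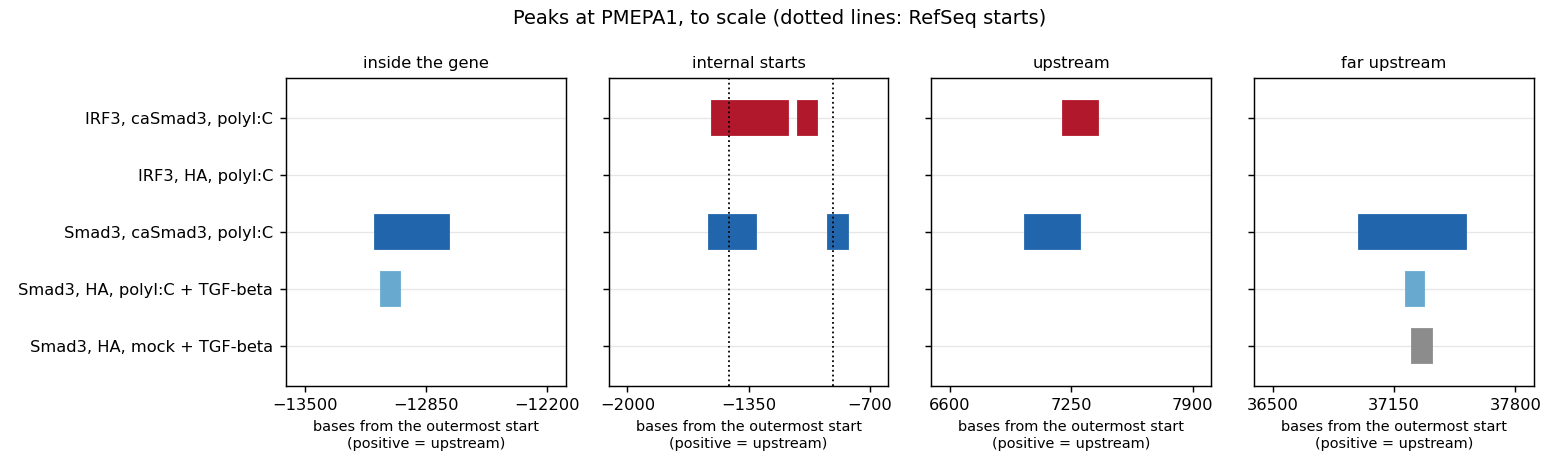
The horizontal axes give bases from the outermost start of PMEPA1, positive upstream, in 4 panels; each row is a library, bars are peaks to scale and dotted lines are internal RefSeq starts. The site 37.0 kb upstream is listed in all 3 Smad3 libraries and in neither IRF3 library.

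BAMBI (chr10:28677521-28682932, plus strand), a pseudoreceptor that lacks the kinase domain of the TGF-beta receptors, and KLF10, a zinc-finger repressor induced early by TGF-beta, had IRF3 peaks in both cell types and no Smad3 peak. Over the BAMBI start the IRF3 peak spanned 300 bases in caSmad3 cells (chr10:28677465-28677764) and 294 bases in HA cells (chr10:28677482-28677775), and the peaks shared 283 bases. A second IRF3 peak of 435 bases lay 47.5 kb downstream of BAMBI in HA cells, with none in caSmad3 cells. Over the upper end of KLF10 the IRF3 peak spanned 424 bases in caSmad3 cells and 146 bases in HA cells, and the wider peak held the narrower one whole. BAMBI and KLF10 were the 2 regulators with a gene-end IRF3 peak in both cell types, a class that held 16.0% of all genes. SMAD6, SKI, SKIL, SMURF2 and PMEPA1 had one in caSmad3 cells alone, a class that held 15.1% of all genes. Counted within 50 kb, the class with IRF3 in both cell types was SMURF2, BAMBI and KLF10, against 35.9% of all genes. The class with IRF3 in caSmad3 cells alone was SMAD6, SKI, SKIL, PMEPA1 and TGIF1, 5 of 10 against 21.2% of all genes. SMAD7 had no IRF3 peak in either cell type, as had 41.2% of all genes.

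SMURF2 and PMEPA1 had Smad3 peaks within 50 kb both in caSmad3 cells and in HA cells with polyI:C and TGF-beta, against 4.97% of all genes. SMAD6, SMAD7, SKI and TGIF1 had them in caSmad3 cells alone, against 28.9%, and SKIL, SMURF1, BAMBI and KLF10 in neither, against 65.9%. Between the HA libraries, PMEPA1 had Smad3 peaks with polyI:C and with mock transfection, against 1.54% of all genes, SMURF2 with polyI:C alone, against 3.7%, and the other 8 regulators in neither, against 94.3%. No regulator had Smad3 peaks in HA cells without one in caSmad3 cells, which is also rare among all genes, at 0.27% for HA cells with polyI:C and 0.0898% for mock-transfected HA cells.

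At the regulators, 4 of the 16 IRF3 peaks from caSmad3 cells shared bases with an IRF3 peak from HA cells (25.0%, 7.27 to 52.4%), against 40.9% over the whole list. In the other direction 4 of the 6 peaks from HA cells shared bases with one from caSmad3 cells (66.7%, 22.3 to 95.7%), against 82.8%. Both intervals held the whole-list value, so sharing at the regulators could not be set apart from that of the lists. For Smad3, 3 of 18 caSmad3 peaks overlapped a peak of HA cells with polyI:C and TGF-beta (16.7%), against 10.8% over the whole list, and all 3 peaks of that HA list overlapped a caSmad3 peak, against 86.4%. Between the HA lists, 1 of the 3 peaks with polyI:C overlapped a peak of mock-transfected cells (33.3%), against 30.3%. The 1 peak of mock-transfected cells, upstream of PMEPA1, overlapped peaks of both other Smad3 lists, as did 69.1% of its list. It was matched by 1 of the 18 caSmad3 peaks, against 5.12% over the caSmad3 list. These Smad3 shares rest on few peaks.

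Within caSmad3 cells, Smad3 and IRF3 each had a peak within 50 kb of SMAD6, SKI, SMURF2, PMEPA1 and TGIF1, 5 of the 10 regulators, against 27.7% of all genes. SKIL, BAMBI and KLF10 had IRF3 alone, against 29.4% of all genes, and SMURF1 had neither, against 36.8%. At gene ends SMAD6, SKI, SMURF2 and PMEPA1 had both factors, 4 of 10 against 8.94% of all genes, a difference that was not tested. Only at SMAD6 did the gene-end peaks of the factors overlap. The Smad3 peaks at SKI, SMURF2 and PMEPA1 lay 981, 867 and 819 bases inside, near the 1 kb limit. Of the Smad3 peaks, 7 of 18 overlapped an IRF3 peak (38.9%, 17.3 to 64.3%), against 31.6% over the whole Smad3 list, and 6 of the 16 IRF3 peaks overlapped a Smad3 peak (37.5%), against 22.8%. Of those 7 Smad3 peaks, 3 were the ones at DDX5 and CEP95, nearer to these genes than to SMURF2. The count was 2 of 18 when 50% of both peaks had to overlap, against 11.7% over the whole list, and 1 of 9 among the wider 50% of peaks, against 27.0%. In HA cells transfected with polyI:C, 0 of the 3 Smad3 peaks overlapped any of the 6 IRF3 peaks, against 31.2% over that Smad3 list and 5.6% over that IRF3 list, and 3 peaks are too few to set a limit on this share. Those HA libraries also differed in TGF-beta, which only the Smad3 cells received.

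At the regulators the median width of the 18 Smad3 peaks in caSmad3 cells was 178.5 bases, against 178 over that list. The 3 Smad3 peaks in HA cells with polyI:C and TGF-beta had a median of 99 bases, against 154.5 over their list, and the 1 peak of mock-transfected HA cells had 108 bases, against 164. For IRF3 the median was 181.0 bases over 16 peaks in caSmad3 cells and 221.5 over 6 peaks in HA cells, while the whole lists had the other order, with 215 and 185 bases. The points of the HA lists are too few to describe a width at these genes. At each of the 3 sites where a Smad3 peak of caSmad3 cells and one of HA cells overlapped, the caSmad3 peak was the wider. How often this held over the whole lists was not counted, so it cannot be called a trait of these genes. The caSmad3 list also had the wider median, 178 bases against 154.5 and 164. Width depends on the caller and on depth, which is not given, and the part of depth in these widths was not tested.

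**Figure D5:**
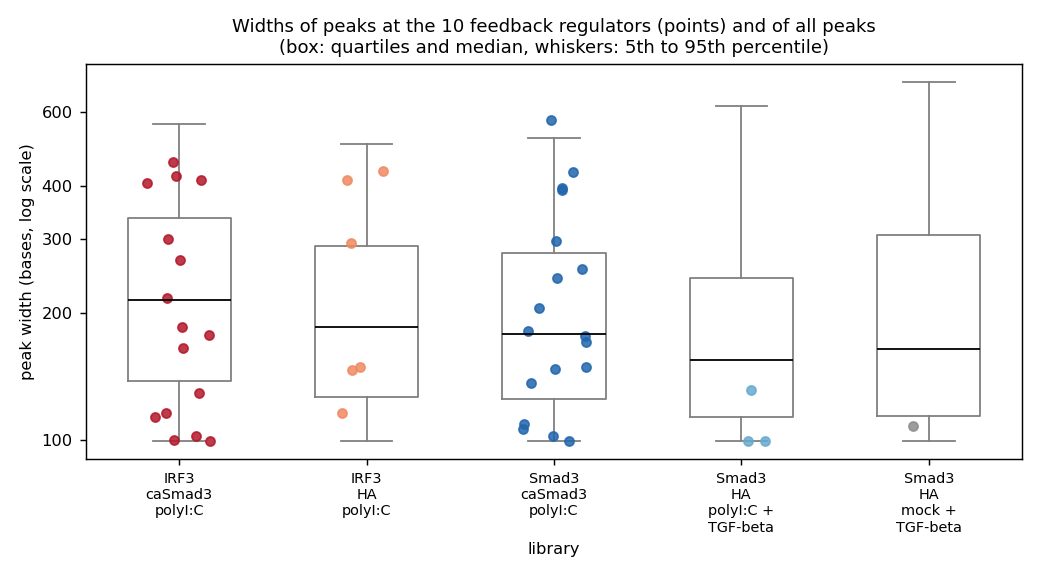
The vertical axis is peak width in bases by library. Points are the peaks at the 10 feedback regulators and boxes the whole list of that library; the widest point, 574 bases, is the Smad3 peak of caSmad3 cells upstream of PMEPA1.

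Among 20 receptors and signalling SMADs of the pathway, Smad3 reached 4 within 50 kb in caSmad3 cells (20.0%, against 33.8% of all genes). It reached 0 in HA cells with polyI:C and TGF-beta, against 5.24%, and 0 in mock-transfected HA cells with TGF-beta, against 2.04%. IRF3 reached 8 in caSmad3 cells (40.0%, against 57.1%) and 2 in HA cells (10.0%, against 37.6%). The same shares of all genes apply to the lists below. No gene of this list had a peak in 3 or more libraries. Among 20 other attenuators the Smad3 counts were 4, 0 and 0 in the same order (20.0, 0.0 and 0.0%). The IRF3 counts were 14 in caSmad3 cells (70.0%) and 8 in HA cells (40.0%). FKBP1A, TGIF2, USP15 and USP4 had peaks in 3 libraries each. Among 16 ligands and genes for their activation, Smad3 reached 8, 4 and 2 (50.0, 25.0 and 12.5%), and IRF3 reached 6 in each cell type (37.5%). The latent TGF-beta binding proteins LTBP2 and LTBP3 had peaks in all 5 libraries, and NRROS, TGFB1 and THBS1 in 3.

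Among 20 effector target genes, Smad3 reached 15 in caSmad3 cells (75.0%, against 33.8% of all genes). It reached 8 in HA cells with polyI:C and TGF-beta (40.0%, against 5.24%) and 4 in mock-transfected HA cells with TGF-beta (20.0%, against 2.04%). IRF3 reached 18 in caSmad3 cells (90.0%, against 57.1%) and 11 in HA cells (55.0%, against 37.6%). ID1 and ID3, inhibitors of basic helix-loop-helix factors, had peaks in all 5 libraries, and CCN1, COL1A1, GADD45B, JUNB and TGFBI in 4, while ANGPTL4 had them in 3. The feedback regulators, at 6, 2 and 1 of 10 for Smad3 (60, 20 and 10%), had shares between those of the receptors and signalling SMADs and those of the effector targets. The same held for the ligands and genes for their activation, at 50.0, 25.0 and 12.5%, which lay above the regulators in both HA lists. This position was thus not particular to the feedback regulators. These lists are descriptive and no difference between them was tested.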

How the data were processed

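Peaks of IRF3 and Smad3 ChIP-seq in BT549 cells were used as the authors deposited them, 1 list for each of 5 libraries, with chromosome, start and end positions and no score. The submitters' processing notes name Bowtie2 2.2.2.6, MACS2 2.1.0 and the build hg38. The calling threshold, any input control and the treatment of duplicates were not given in the sources used here. Positions are printed 1-based. Distances were computed to gene bodies of the RefSeq GRCh38.p14 table with Python 3.11.15, numpy 2.4.6, pandas 2.3.3, scipy 1.17.1 and matplotlib 3.10.9, and the distance and overlap steps were tested on planted peaks. Sharing needed an overlap of 1 base. A peak deep inside lay more than 1 kb from both gene ends. Strand and starts came from the RefSeq promoter table, which matched 8 of the 10 regulators. The 10 genes, the other pathway lists and the motifs were chosen with earlier results of these data known. Genes of those lists were named where peaks lay within 50 kb in at least 3 libraries, up to 8 a list; nearest neighbours, NKILA and LOC105372692 were named after their positions were seen. With 1 library per group nothing was tested between groups. Intervals are 95% Clopper-Pearson, the limit for a count of 0 is 3 counts, and both cover counting error only. Alternatives were the window, the definitions of gene end and depth inside, the overlap and the wider 50% of peaks.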

Additional observations from a re-analysis of the deposited data

How the results depend on the processing

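Of 71 counts made under other settings, 43 stayed within 1.5 times the count reported and 28 did not, all of them small counts of genes or peaks. The 43 include counts of 0 that stayed 0, some under settings that could not raise them. Peaks carry no score, so the wider 50% of each list stood in for a stricter threshold. With it, peaks at the regulators numbered 7 and 9 for IRF3 and Smad3 in caSmad3 cells, 3 for IRF3 in HA cells, and 0 for Smad3 in HA cells with polyI:C and with mock transfection, which left 0 regulators with a Smad3 peak in HA cells. Regulators with an IRF3 peak in HA cells then numbered 2; those with a gene-end peak 4 for IRF3 and 2 for Smad3 in caSmad3 cells and 1 for IRF3 in HA cells; those with a deep peak 1 for each factor in caSmad3 cells and 0 in HA cells. Overlaps of IRF3 peaks between caSmad3 and HA cells then numbered 2, and of Smad3 with IRF3 peaks in caSmad3 cells 1; the last number was 2 when 50% of both peaks had to overlap. With a window of 10 kb, Smad3 peaks numbered 10 in caSmad3 cells, 1 in HA cells with polyI:C at 1 regulator, and 0 in mock-transfected HA cells at 0 regulators, and IRF3 peaks in HA cells 3. More than 10 kb from both ends, deep peaks remained at 1 regulator for Smad3 and 0 for IRF3 in caSmad3 cells, and 0 for IRF3 in HA cells. With RefSeq starts alone as gene ends, IRF3 in HA cells reached 1 of the 8 regulators with a listed start. KLF10, which has no listed start, could not be counted by this rule. Leaving out PMEPA1 and SMURF2, an alternative chosen after seeing the data, gave 5.79, 0.0 and 0.0 Smad3 peaks per megabase in the caSmad3, polyI:C and mock lists. No paired analysis was possible because each group holds 1 library. Depth is unknown, so an unlisted peak is not evidence that a site was unbound.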

Other observations

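Beyond the 50 kb limit and up to 100 kb from the regulators, 4 more peaks were listed. In caSmad3 cells a Smad3 peak of 322 bases lay 61.0 kb upstream of PMEPA1 (chr20:57772507-57772828), further out on the side of the site listed in all 3 Smad3 libraries. Another, of 147 bases, lay 85.0 kb from SMAD7 (chr18:48834690-48834836), where CTIF was nearer. IRF3 had overlapping peaks of 231 bases in caSmad3 cells and 198 bases in HA cells, 81.1 and 81.2 kb above SKI, at an end of MORN1.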
